A study of Arabidopsis thaliana with 12 samples.

Results

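Arabidopsis thaliana seedlings given warmth alone were compared with seedlings given mannitol alone. The comparison takes 6 of the 12 libraries of the study, 3 from seedlings at 27°C without mannitol and 3 from seedlings at 21°C with mannitol, chosen by their treatment labels and by no measured value. All plants were wild type Columbia, raised in short days of 8 h light and 16 h dark at 21°C until day 7. The treatments began at ZT1, 1 h after lights on. The warm group was moved to 27°C and received no mannitol, and the mannitol group stayed at 21°C. Whole seedlings were harvested at ZT13, in the dark. The other groups, untreated seedlings at 21°C and seedlings given both treatments (27°C with mannitol), entered the fit and are cited to place a difference. The sources used here do not give the mannitol dose, the number of seedlings per library or whether the replicates came from separate plates or extractions, so the p-values measure only the spread between these libraries, which may be technical.

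Moderate warmth makes Arabidopsis seedlings elongate, a programme called thermomorphogenesis. The evening complex of the clock (ELF3, ELF4 and LUX) represses the transcription factor PIF4, which in turn drives auxin synthesis genes and cell elongation. Mannitol is a sugar alcohol that draws water out of roots and is used to mimic drought, and plants answer osmotic stress through abscisic acid and, in some settings, through defence hormones such as salicylic acid. The study's title names drought, salicylic acid and ELF3 as parties to this response. Setting the single treatments against each other shows which transcripts separate a warm seedling from an osmotically treated one.

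The values are TPM, a gene's reads divided by its length and scaled to a fixed sum per library. Between 13477706 and 14213880 reads per library could be recovered from the TPM values of the 6 libraries, and 19141 to 19176 genes in the 27°C libraries and 19305 to 19359 in the mannitol libraries reached 1 TPM. The groups separated on the second principal component, where the 27°C libraries lay at 35.54 to 39.81 and the mannitol libraries at -38.74 to -36.64. Within the 27°C group, replicate 2 stood apart on the third component, at 26.27 against 1.48 and 11.53 for replicates 1 and 3. The shoot, root, seed and dividing-cell markers that bear on the label "whole seedlings" are given with their lists. In such bulk samples fewer cells of a type and less RNA per cell cannot be told apart. Every level is therefore a share of the library's RNA.

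Nearly every second transcript differed between warmth and mannitol, mostly by modest amounts. Of 20005 genes tested, 9659 (48.3%) were called at an adjusted p below 0.05 by limma, 4534 higher at 27°C (22.7%) and 5125 lower (25.6%). A difference of at least 1 on the log2(TPM + 1) scale, here called 2-fold, was reached by 636 genes higher at 27°C (3.18%) and 840 lower (4.2%). The tail was longer on the lower side, with 46 genes at least 8-fold lower at 27°C and 16 at least 8-fold higher. The median difference over all genes tested was -0.015 with a median standard error of 0.117. Without 27°C replicate 2, 10299 genes were called, and among the gene list counts below those that moved by over 1.5 times were members called higher in the indole list (1 instead of 0) and the flavonoid list (0 instead of 1). Log2 differences below are 27°C minus mannitol, ± is the standard error (SE) of the fit, and adjusted p-values are limma's over all 20005 genes.

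The promoters of several strongly separated genes are printed here as examples that hold short sequence motifs. The G-box CACGTG is bound by PIF and other bHLH factors and by bZIP factors of the abscisic acid response. The W-box, searched as TTGACC and TTGACT, is bound by WRKY factors of defence. The evening element AAATATCT is bound by clock factors of the LHY and RVE family, and the heat shock element, searched as GAA, any 2 bases and then TTC (the order TTC then GAA was not searched), by heat shock factors. Windows of 250 bases before the annotated gene start were read from the TAIR10.1 genome, 5′ to 3′ along the gene's strand, with matches on either strand in capitals. They are the evening complex gene LUX at chr3:17182792-17183041 (plus strand), the small heat shock protein gene HSP17.4 at chr3:16984868-16985117 (minus strand), the AWPM-19-like gene AT1G04560 at chr1:1244697-1244946 (plus strand), the chitinase family gene AT2G43620 at chr2:18095094-18095343 (minus strand) and WRKY53 at chr4:12393983-12394232 (minus strand). The first 3 are from genes higher at 27°C and the others from genes lower at 27°C, and no window overlaps another annotated gene.
LUX: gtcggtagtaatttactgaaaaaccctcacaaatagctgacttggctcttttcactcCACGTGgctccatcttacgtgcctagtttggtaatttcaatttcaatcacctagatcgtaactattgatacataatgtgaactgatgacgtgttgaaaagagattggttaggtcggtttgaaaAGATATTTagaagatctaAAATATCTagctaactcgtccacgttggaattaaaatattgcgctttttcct
HSP17.4: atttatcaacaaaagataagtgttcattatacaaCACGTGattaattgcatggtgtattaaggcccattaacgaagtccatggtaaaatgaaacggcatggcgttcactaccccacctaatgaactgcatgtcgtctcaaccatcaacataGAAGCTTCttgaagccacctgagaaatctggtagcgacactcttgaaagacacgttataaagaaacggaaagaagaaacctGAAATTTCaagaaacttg
AT1G04560: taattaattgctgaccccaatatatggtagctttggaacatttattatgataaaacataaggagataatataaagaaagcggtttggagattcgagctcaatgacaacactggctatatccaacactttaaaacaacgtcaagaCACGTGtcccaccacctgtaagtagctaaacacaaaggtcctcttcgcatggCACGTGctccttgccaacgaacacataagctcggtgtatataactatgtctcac
AT2G43620: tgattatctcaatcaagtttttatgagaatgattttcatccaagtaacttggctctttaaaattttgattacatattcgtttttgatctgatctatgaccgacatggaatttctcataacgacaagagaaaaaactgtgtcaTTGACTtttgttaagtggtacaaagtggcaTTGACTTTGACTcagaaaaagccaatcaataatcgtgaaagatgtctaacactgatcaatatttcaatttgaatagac
WRKY53: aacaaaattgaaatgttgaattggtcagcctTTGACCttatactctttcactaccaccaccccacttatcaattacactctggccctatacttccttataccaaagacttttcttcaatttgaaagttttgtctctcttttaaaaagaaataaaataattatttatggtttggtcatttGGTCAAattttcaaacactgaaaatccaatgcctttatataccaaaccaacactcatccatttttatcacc

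The capitals in LUX are a G-box and a pair of evening elements, those in HSP17.4 a G-box and a pair of heat shock elements, those in AT1G04560 G-boxes, and those in the defence genes W-boxes, a pair of them side by side in AT2G43620. Over all genes, a G-box was present in 18.8% of 618 promoters of genes at least 2-fold higher at 27°C, in 4.3% of 838 promoters of genes at least 2-fold lower, and in 7.46% of the 19894 promoters of all genes tested. The W-box ran the other way, at 21.8% for genes higher at 27°C, 43.1% for genes lower and 28.4% for all. With at least 4-fold differences the shares moved further apart, to 31.1% and 4.27% for the G-box and 16.7% and 47% for the W-box. The evening element was at 5.18%, 5.25% and 4.92%, and the heat shock element at 8.74%, 13.5% and 9.25%. With at least 4-fold differences these were at 8.89% (8 of 90 promoters) and 4.88%, and at 8.89% and 14%. Not every named gene holds a motif, and the windows of PIF4 and YUC8 had 0 matches to any of those searched. A match is a description of letters and not a tested binding site.

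**Figure D1:**
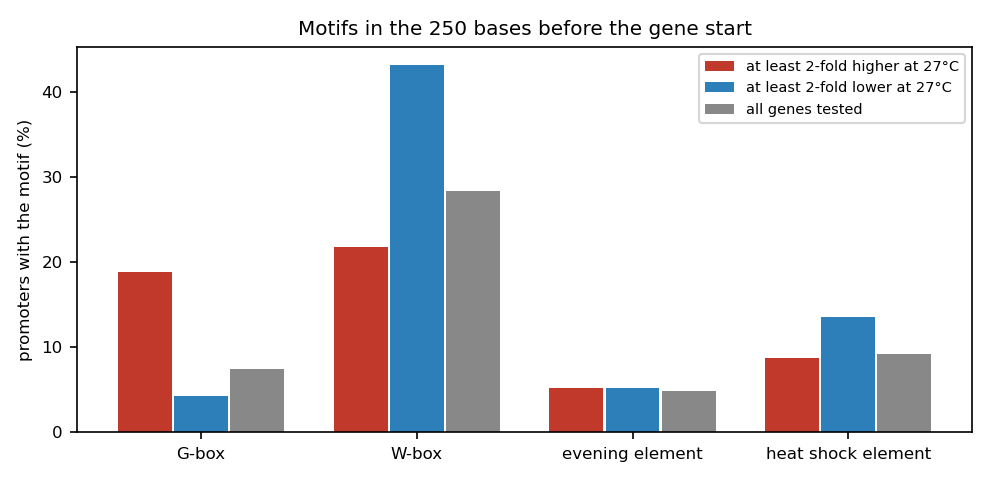
Share of promoters (250 bases before the gene start, in %) that hold each motif, for genes at least 2-fold higher at 27°C (red), at least 2-fold lower at 27°C (blue) and all genes tested (grey). The G-box share is 18.8% in the higher and 4.3% in the lower genes, and the W-box share is 21.8% and 43.1%.

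Warm growth genes were higher at 27°C than with mannitol. PIF4 (AT2G43010) was at 10.7, 9.01 and 10.6 TPM in the 27°C libraries and at 2.25, 1.27 and 1.46 TPM in the mannitol libraries, a difference of 2.07 ± 0.16 (adjusted p = 9.17e-08). The groups did not overlap, and the mannitol libraries lay beside untreated 21°C seedlings, which had 2.1 to 2.43 TPM. YUC8 (AT4G28720), a flavin monooxygenase that makes auxin, was at 17.7, 25.8 and 20.8 TPM at 27°C and 5.17, 2.76 and 4.81 TPM with mannitol (2.11 ± 0.18, adjusted p = 3.30e-07). IAA29 (AT4G32280), an auxin-induced repressor, was at 31.5, 33.1 and 33.4 TPM at 27°C and 4.39, 4.73 and 4.31 TPM with mannitol (2.62 ± 0.12, adjusted p = 5.21e-10). Of 17 tested members of the list of thermomorphogenesis and PIF targets, 14 were called higher and 1 lower, with a median of 1.07. The growth-promoting bHLH gene PRE1 stood at 2.02, the B-box genes BBX28 and BBX24 at 2.22 and 1.73 and the wall enzyme XTH15 at 2.08. The single member called lower was PIF7 (-0.72), which encodes another warmth-acting PIF. The list median was 1.60 for 27°C minus 21°C and 0.21 for mannitol minus 21°C, comparisons that share the 21°C libraries.

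Auxin response genes were mostly higher at 27°C, and cell wall and growth hormone genes had more members called higher than lower. In the auxin list 26 of 37 tested members were called higher at 27°C and 3 lower (median 0.69). All 6 small auxin-up transcripts from SAUR19 to SAUR24 were called higher, by 1.31 to 1.81, and SAUR20 was at 9.67, 12.9 and 12.5 TPM at 27°C and 2.86, 2.74 and 2.59 TPM with mannitol. The sources used here do not say how reads shared by such near-identical copies were counted. Members called lower included TAA1 (-0.68), which acts just before the YUC enzymes, and the kinase gene PID (-0.37). Cell wall genes split, with 14 of 30 higher and 6 lower (median 0.36). XTH24, a xyloglucan-remodelling enzyme, was at 359, 364 and 339 TPM at 27°C and 67.7, 48.5 and 66 TPM with mannitol (2.54 ± 0.20, adjusted p = 1.12e-07), and the expansin EXPA8 at 117, 102 and 116 TPM against 33, 31.8 and 35.1 TPM. In contrast EXPA15 was lower at 27°C, with 27.9, 21.4 and 23.4 TPM against 50.1, 64.4 and 54.2 TPM with mannitol (-1.18 ± 0.10, adjusted p = 2.28e-07). Of 25 gibberellin and brassinosteroid genes 12 were higher and 2 lower (median 0.31). CPD, a brassinosteroid synthesis enzyme, was higher (0.93 ± 0.06, adjusted p = 1.60e-08), and GA3OX1, which makes active gibberellin, was lower (-1.05 ± 0.11, adjusted p = 1.93e-06).

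Clock transcripts were higher at 27°C at this hour, and the evening complex members differed in how far. LUX was at 43.3, 40.7 and 41.9 TPM at 27°C and 6.56, 6.37 and 5.59 TPM with mannitol (2.58 ± 0.10, adjusted p = 5.88e-11). ELF4 (AT2G40080) was at 84.6, 112 and 103 TPM at 27°C and 84.2, 85.1 and 85.1 TPM with mannitol, and its difference of 0.22 ± 0.08 only just passed (adjusted p = 0.0410). Without 27°C replicate 2, the highest of these libraries, ELF4 was at 0.14 and no longer passed. ELF3 (AT2G25930), named in the study's title, was at 83.7, 60.4 and 77.2 TPM at 27°C and 67.9, 73.9 and 70.9 TPM with mannitol. These groups overlapped and the difference did not pass (0.04 ± 0.10, adjusted p = 0.735), but without 27°C replicate 2, its lowest library, it was 0.18 and passed (adjusted p = 0.0407). Over the clock list 20 of 25 tested members were called higher and 0 lower, with a median of 0.78. The Myb-like clock factors RVE7 and RVE4 stood at 1.89 and 1.72, the flowering repressor CDF2 at 1.70, the evening gene TOC1 at 1.20 and GI at 1.11. With a single harvest time a higher level and a shifted phase cannot be told apart.

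Most tested heat shock genes were higher at 27°C, whereas most tested chaperone genes of the endoplasmic reticulum were lower. HSP70 (AT3G12580) was at 85.4, 95.7 and 86.8 TPM at 27°C and 18.1, 17.9 and 16.1 TPM with mannitol (2.30 ± 0.09, adjusted p = 7.60e-11). Both groups lay above the untreated seedlings, which had 6.84 to 8.72 TPM. HSP90.1 was at 60.4, 56.9 and 56.2 TPM at 27°C against 7.72, 9.12 and 9.46 TPM with mannitol (2.59 ± 0.11, adjusted p = 1.34e-10), and HSP17.4, whose promoter is printed above, at 5.89, 9.74 and 8.89 TPM against 0.69, 0.441 and 0.232 TPM. In the heat shock list 20 of 27 tested members were higher and 1 lower (median 0.60), the lower one being the constitutive HSC70-1 (-0.24). The summed level of the list nevertheless ran the other way, at 3044, 3034 and 3135 TPM at 27°C and 3315, 3213 and 3294 TPM with mannitol. In the list of endoplasmic reticulum folding 11 of 13 were lower at 27°C and 1 higher (median -0.29). The binding proteins BIP3, BIP2 and BIP1 stood at -1.24, -0.55 and -0.44, and the stress-induced transcription factor gene BZIP60 at -0.60, while BZIP28 was higher at 0.30. The summed level of this list was 1236, 1295 and 1234 TPM at 27°C and 1577, 1572 and 1533 TPM with mannitol.

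**Figure D2:**
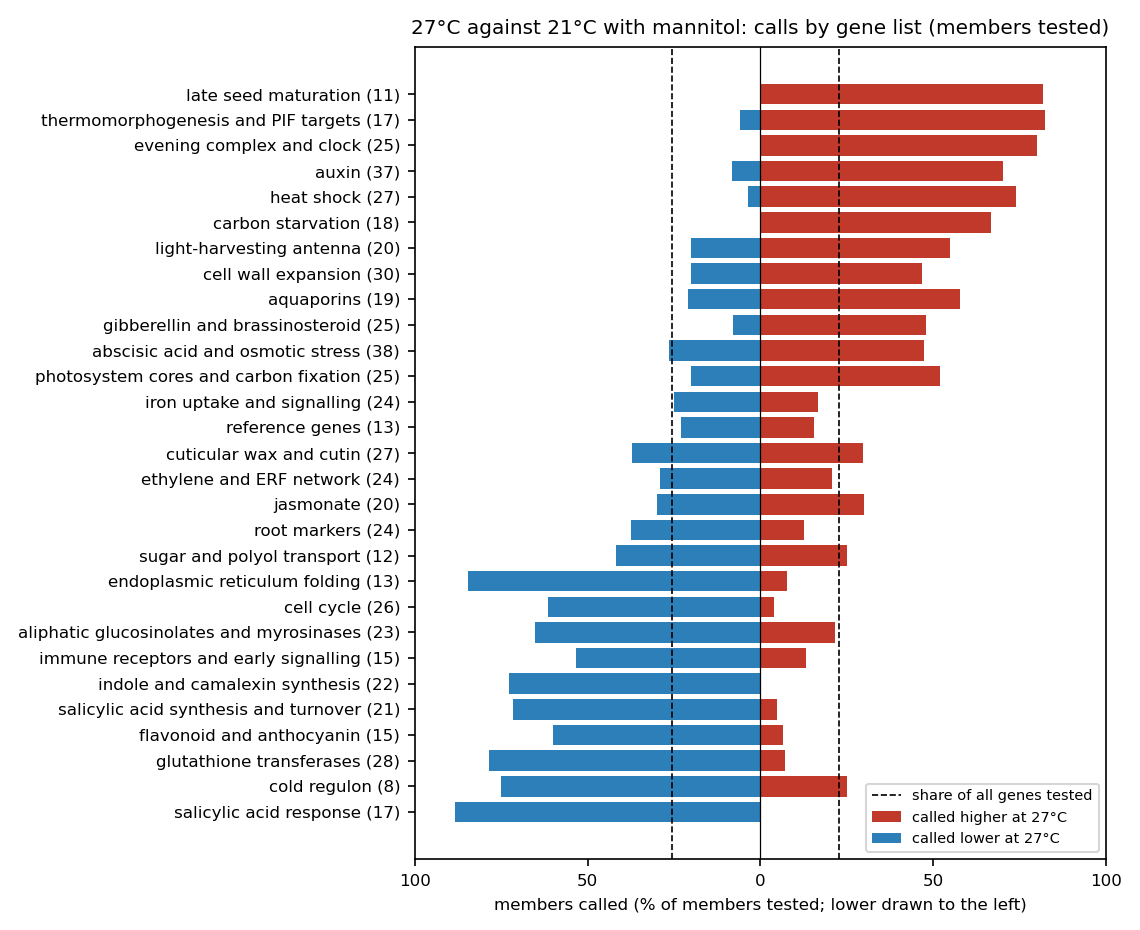
Members of each gene list called higher at 27°C (red, to the right) and lower at 27°C (blue, to the left), in % of members tested, with the number tested in parentheses. Dashed lines mark the shares of all genes tested, 22.7% higher and 25.6% lower, and lists are ordered by their median log2 difference, from late seed maturation at the top to salicylic acid response at the bottom.

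The genes furthest above their mannitol level at 27°C included seed and dehydration proteins. M17 (AT2G41260), a late embryogenesis abundant protein, was at 46.2, 36.9 and 55 TPM at 27°C and 0.83, 0 and 0.418 TPM with mannitol (5.08 ± 0.39, adjusted p = 9.78e-08, or 3.22 to 7.20 over the alternative settings). RAB18 (AT5G66400), a dehydrin induced by abscisic acid, was at 124, 141 and 146 TPM at 27°C and 17.7, 8.61 and 12.8 TPM with mannitol (3.35 ± 0.33, adjusted p = 1.19e-06). Untreated seedlings had 4.65 to 17 TPM of RAB18, and mannitol did not differ from that level (0.18 ± 0.33, adjusted p = 0.768). AT1G04560 was at 22.7, 34.2 and 33.4 TPM at 27°C and 7.59, 0.445 and 0.469 TPM with mannitol, where replicate 1 was the high library. Of 11 tested members of the late seed list, which also serves as a check for seed material, 9 were higher and 0 lower, with a median of 2.40 that ran from 1.19 with a pseudocount of 5 to 3.78 with voom, among them the vacuolar channels BETA-TIP (3.47 ± 0.24) and TIP3;1 (3.46 ± 0.26), the peroxiredoxin PER1 (3.46 ± 0.44) and the oil body protein OLEO2 (2.40). The list's summed level was 158, 156 and 197 TPM at 27°C, 34.4, 5.58 and 13.6 TPM with mannitol, and 20.8, 33.3 and 3.77 TPM in untreated seedlings. It thus varied several-fold among the replicates at 21°C, and the part of residual seed material in these values was not tested. The storage protein genes CRU3 and SESA1 were too low to be tested.

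Abscisic acid and osmotic genes went both ways. Of 38 tested, 18 were called higher at 27°C and 10 lower (median 0.24), the lower share being near that of all genes (25.6%). The summed level of the list was lower at 27°C, at 1418, 1448 and 1437 TPM against 1508, 1480 and 1497 TPM with mannitol. RD29B was at 76.7, 65.4 and 66.8 TPM at 27°C and 11.3, 4.74 and 6.92 TPM with mannitol (3.10 ± 0.40, adjusted p = 1.61e-05), and the factor ABF3 was higher by 1.62. P5CS1 (AT2G39800), which makes proline, was at 27.8, 17.3 and 25.6 TPM at 27°C and 13.8, 13.8 and 12.8 TPM with mannitol (0.74 ± 0.18, adjusted p = 0.00290). NCED3 (AT3G14440), the rate-limiting abscisic acid synthesis enzyme, had 2.46, 2.43 and 2.25 TPM at 27°C and 1.64, 1.51 and 1.91 TPM with mannitol, and its difference of 0.33 ± 0.21 did not pass (adjusted p = 0.197) although the libraries did not overlap. Lower at 27°C than with mannitol were RD29A (AT5G52310), with 5.98, 5.5 and 6.77 TPM at 27°C against 11.1, 10.1 and 8.96 TPM (-0.64 ± 0.12, adjusted p = 0.000489), the receptor gene PYL6 (-2.10) and the dehydration marker RD22 (-1.82). Untreated seedlings had 11.6 to 13 TPM of RD29A, so it lay below that level at 27°C (-0.92 ± 0.12). With mannitol RD29A did not differ from untreated by the same fit (-0.27 ± 0.12, adjusted p = 0.134), whereas PYL6 lay above its untreated level (1.02 ± 0.12). RD29B, P5CS1 and NCED3 also did not differ between mannitol and untreated (0.53 ± 0.40, 0.04 ± 0.18 and -0.07 ± 0.21, adjusted p = 0.403, 0.916 and 0.865). Untreated RD29B varied, at 11.3, 5.01 and 1.51 TPM, and the part of residual seed material in it was not tested. The dehydrin LTI30 was at 14, 17.8 and 16.6 TPM at 27°C against 72.5, 65.1 and 64.6 TPM with mannitol. Its mannitol level lay above untreated (0.73 ± 0.11). The breakdown enzymes CYP707A1 and CYP707A3 were also lower at 27°C (-0.89 and -0.78).

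Cold-regulated genes held some of the widest gaps on the lower side. COR15A (AT2G42540), which encodes a chloroplast membrane protectant, was at 1.03, 0.615 and 0.928 TPM at 27°C and 41.4, 48.2 and 38.5 TPM with mannitol (-4.56 ± 0.21, adjusted p = 6.47e-10, or -5.62 to -3.02 over the alternative settings). Its neighbouring copy COR15B was at 0.864, 0.902 and 1.14 TPM at 27°C and 33.6, 38.4 and 36 TPM with mannitol (-4.23 ± 0.18, adjusted p = 1.65e-10). The untreated level told these copies apart, since untreated seedlings had 13.5 to 22.2 TPM of COR15A and 33.6 to 39 TPM of COR15B. COR15B thus lay at its untreated level with mannitol, and COR15A above it (adjusted p = 0.000641 for mannitol minus 21°C). KIN1 and KIN2, another pair of similar copies, stood at -3.55 (-4.81 to -2.01 over the alternative settings) and -1.77. Of 8 members tested 6 were lower and 2 higher, COR47 (0.32) and COR413-PM1 (0.55), with a median of -1.25. The regulators CBF1, CBF2 and CBF3 were too low to be tested.

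Salicylic acid genes were lower at 27°C than with mannitol, the response genes by more than the synthesis genes. ICS1 (AT1G74710), the main synthesis enzyme, was at 4.42, 5.05 and 5.87 TPM at 27°C and 8.8, 8.17 and 8.46 TPM with mannitol (-0.64 ± 0.13, adjusted p = 0.00106). Its paralog ICS2 ran the other way, at 9.45, 11.3 and 9.9 TPM at 27°C against 2.06, 1.73 and 1.69 TPM with mannitol (1.99 ± 0.14, adjusted p = 4.32e-08), and was the only member of its list called higher. Of 21 synthesis and turnover genes 15 were lower (median -0.64), among them the regulator CBP60G (-2.04), the conjugating enzyme PBS3 (-1.29) and the hydroxylase DLO1 (-2.46), which removes salicylic acid. Of 17 response genes 15 were lower and 0 higher, with a median of -1.76. That median was -0.63 with a pseudocount of 5 and -3.28 with voom on recovered reads. A filter of at least 5 TPM in 3 libraries leaves out low genes, so fewer members were tested. With it 8 were lower, and the median of the members left was -1.42. PR5 (AT1G75040), a thaumatin-like defence protein, was at 2.09, 2.21 and 1.43 TPM at 27°C and 40.7, 58.7 and 46.2 TPM with mannitol (-4.08 ± 0.16, adjusted p = 7.69e-11). Untreated seedlings had 9.42 to 10.6 TPM, so PR5 lay below its untreated level at 27°C (-1.91 ± 0.16) and above it with mannitol (2.18 ± 0.16). ACD6, an ankyrin protein that raises salicylic acid, was at 10.6, 6.44 and 8.82 TPM at 27°C against 83.9, 71.7 and 88.6 TPM with mannitol. WRKY53, whose promoter is printed above, was at 2.41, 1.54 and 1.09 TPM at 27°C against 17.4, 18.6 and 19.2 TPM with mannitol (-2.89 ± 0.21, adjusted p = 7.64e-08). PR1 (AT2G14610) was listed at 0 in all 6 libraries. The list median was -0.09 for 27°C minus 21°C and 1.60 for mannitol minus 21°C.

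Detoxification and indole defence genes showed the same side. The chitinase family gene AT2G43620 was at 2.02, 2.49 and 3.13 TPM at 27°C and 192, 167 and 174 TPM with mannitol (-5.66 ± 0.17, adjusted p = 1.13e-11). AT5G42530, which has no described product in the reference, was at 5.72, 9.88 and 11.1 TPM at 27°C against 619, 550 and 665 TPM with mannitol (-5.99 ± 0.21). GSTF6 (AT1G02930), a glutathione transferase, was at 20.9, 27.9 and 21 TPM at 27°C and 552, 546 and 537 TPM with mannitol (-4.51 ± 0.10, adjusted p = 1.10e-12), and its close copy GSTF7 at 53.3, 53.2 and 47.5 TPM against 533, 466 and 553 TPM. The split of reads between them is not known here. Of 28 glutathione transferase genes 22 were lower at 27°C and 2 higher (median -0.84), and their summed level was 2090, 2625 and 2360 TPM at 27°C and 4782, 4719 and 4721 TPM with mannitol. BCB, a blue copper protein, was at 3.19, 11.9 and 6.08 TPM at 27°C against 144, 146 and 155 TPM with mannitol. Of 22 indole and camalexin genes 16 were lower and 0 higher (median -0.61). CYP71A12 was at 17.1, 20.2 and 16.4 TPM at 27°C and 75, 77.1 and 85.6 TPM with mannitol, whereas its near-identical copy CYP71A13 was listed at 0 in the 27°C libraries and had 7.46, 3.97 and 7.19 TPM with mannitol. CYP81F2, which modifies indole glucosinolates, stood at -2.20 ± 0.09 (adjusted p = 1.34e-10) and the exporter gene PEN3 at -1.36. Against untreated seedlings, GSTF7, CYP71A12 and CYP81F2 were higher at 27°C (1.76, 2.96 and 0.89) and more so with mannitol (5.07, 5.05 and 3.09). The list medians for 27°C minus 21°C were -0.06 for glutathione transferases and 0.01 for indole genes. For mannitol minus 21°C these medians were 0.52 and 0.74.

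**Figure D3:**
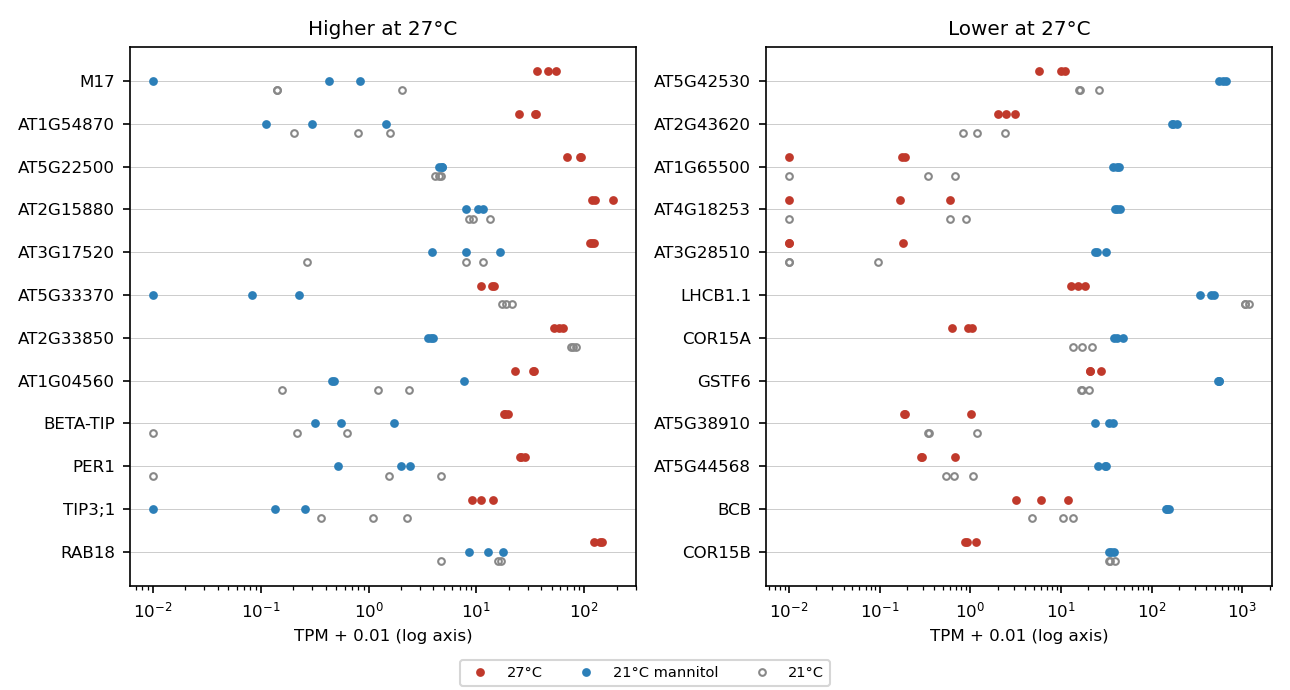
TPM + 0.01 in every library (log axis) for the 12 named genes with the largest differences in each direction, at 27°C (red), at 21°C with mannitol (blue) and at 21°C (open grey); a point at 0.01 is a gene listed at 0. On the right, defence genes such as AT2G43620 and GSTF6 have untreated levels near those at 27°C, while COR15B has an untreated level near that with mannitol.

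Early immune signalling genes were more often lower than higher at 27°C, and the ethylene and jasmonate genes had no shared direction. Of 15 immune receptor and signalling genes 8 were lower at 27°C and 2 higher (median -0.36), against 25.6% and 22.7% of all genes. The receptor-like kinase SOBIR1 stood at -1.49, the kinase MPK3 at -0.95 and the flagellin receptor FLS2 at 0.52. In the ethylene and ERF list 5 of 24 were higher and 7 lower (median -0.12), shares close to those of all genes. ACS8, which makes the ethylene precursor, was at 11.6, 9.27 and 8.86 TPM at 27°C against 0.83, 0.795 and 0.752 TPM with mannitol (2.60 ± 0.20, adjusted p = 8.66e-08), while the factor ERF5 was at 5.16, 7.02 and 8.08 TPM against 19.7, 24.7 and 22.6 TPM (-1.60 ± 0.16, adjusted p = 1.22e-06). Of 20 jasmonate genes 6 were higher and 6 lower (median -0.14), also near the shares of all genes (22.7% and 25.6%), VSP1 at 1.55 and the synthesis enzyme LOX3 at 1.43 among the higher. Aliphatic glucosinolate genes were mostly lower at 27°C than with mannitol, with 15 of 23 lower and 5 higher (median -0.33), the regulator MYB29 at -1.26. By list median both treatments lay below untreated seedlings, at -0.69 for 27°C minus 21°C and -0.41 for mannitol minus 21°C. The myrosinase TGG2, which cleaves glucosinolates, was the exception by size, at 43.6, 34 and 42 TPM at 27°C against 15.2, 12.3 and 13.1 TPM with mannitol (1.49 ± 0.11, adjusted p = 1.01e-07). Untreated seedlings had 58.2 to 74.4 TPM of TGG2, above both treatments.

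Transcripts of the light-harvesting antenna differed between the treatments, with copies of a single family called in opposite directions. LHCB4.2, a minor antenna protein of photosystem II, was at 831, 834 and 816 TPM at 27°C and 188, 162 and 179 TPM with mannitol (2.23 ± 0.05, adjusted p = 1.95e-12), and LHCB6 at 1126, 1376 and 1104 TPM against 472, 454 and 494 TPM. LHCB1.1 (AT1G29920), a copy of the main trimeric antenna protein, was at 12.9, 18.5 and 15.5 TPM at 27°C and 452, 340 and 481 TPM with mannitol (-4.68 ± 0.13, adjusted p = 6.46e-12). Untreated seedlings had over 1000 TPM of LHCB1.1, so it lay below that level in both treatments. LHCB1.5 and LHCB2.1 were called higher at 27°C, LHCB2.1 by 1.87, while LHCB1.2 and LHCB1.3 were lower (-0.71 and -0.39), and the LHCB1 copies are so alike that the assignment of their reads, which the sources used here do not describe, bears on each value. Of 20 antenna genes 11 were higher and 4 lower (median 0.39), yet their summed level overlapped between the groups, at 34964, 37866 and 35358 TPM at 27°C and 39690, 34415 and 38459 TPM with mannitol. Of 25 genes of the photosystem cores and carbon fixation 13 were higher and 5 lower (median 0.17), and their summed level did not overlap, at 85064, 87480 and 84468 TPM at 27°C and 70816, 75458 and 72471 TPM with mannitol. Rubisco activase (RCA) was at 5095, 4786 and 4987 TPM at 27°C and 2879, 3196 and 2916 TPM with mannitol (0.73 ± 0.05, adjusted p = 8.88e-08).

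**Figure D4:**
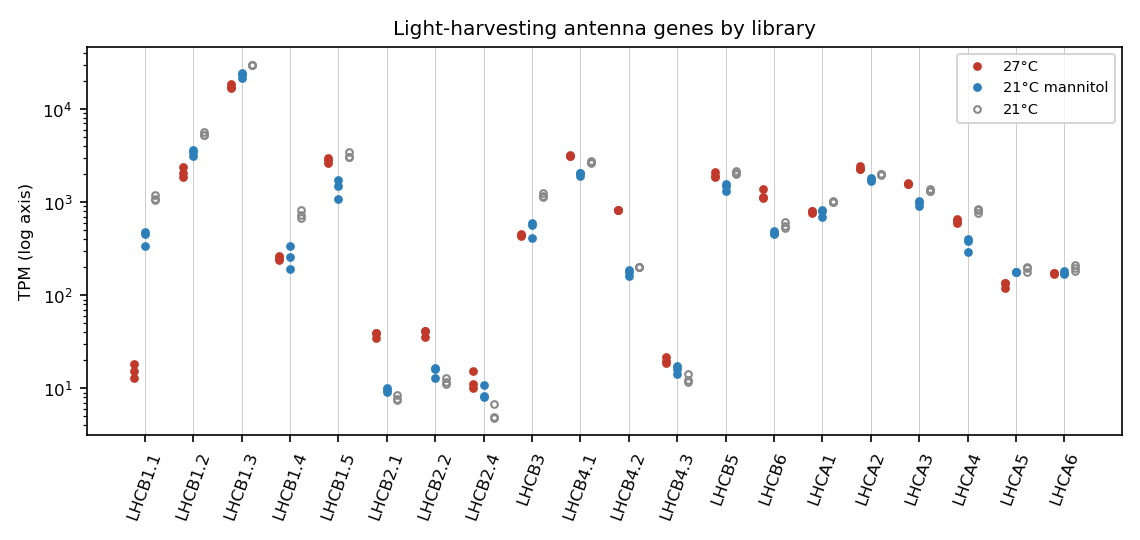
TPM of 20 light-harvesting antenna genes in every library (log axis), at 27°C (red), at 21°C with mannitol (blue) and at 21°C (open grey). Of the groups drawn, LHCB1.1 has its own lowest values at 27°C, between 12.9 and 18.5 TPM, whereas LHCB4.2 has its own highest values there, between 816 and 834 TPM.

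Genes of water, sugar and carbon balance separated by family member. Of 19 aquaporins, the water channels of the plasma membrane and vacuole, 11 were higher at 27°C and 4 lower (median 0.34). TIP1;2 was at 3944, 3613 and 3467 TPM at 27°C and 1326, 1125 and 1275 TPM with mannitol (1.57 ± 0.07, adjusted p = 1.68e-10), and PIP2;6 at 189, 180 and 192 TPM against 68.2, 65.9 and 64.3 TPM. The aquaporins lower at 27°C were PIP2;5, PIP2;8, TIP2;2 and TIP2;3 (-0.70 to -0.41). Sugar and polyol carriers included 5 of 12 lower at 27°C and 3 higher, against 25.6% and 22.7% of all genes. PMT5, a transporter that accepts polyols, was at 58.5, 54.8 and 57.9 TPM at 27°C against 116, 119 and 119 TPM with mannitol (-1.04 ± 0.07, adjusted p = 1.59e-08). The hexose carrier STP4 was at 60.1, 56.5 and 59.4 TPM at 27°C against 176, 172 and 180 TPM with mannitol (-1.57 ± 0.06, adjusted p = 9.15e-11). Carbon starvation markers were higher at 27°C for 12 of 18 and lower for 0 (median 0.52), with the asparagine synthetase ASN1 at 60.4, 64 and 63.1 TPM at 27°C against 26.2, 10.8 and 27.3 TPM with mannitol, where replicate 2 was the low library.

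Surface lipid genes went both ways, with the widest gaps among those higher at 27°C. CER1 (AT1G02205), which makes wax alkanes, was at 23.7, 15.6 and 20.7 TPM at 27°C and 1.57, 1.78 and 1.63 TPM with mannitol (2.96 ± 0.15, adjusted p = 1.14e-09). The GDSL lipase gene AT5G33370 was at 14, 11 and 14.6 TPM at 27°C and 0.219, 0 and 0.0735 TPM with mannitol (3.69 ± 0.15, or 1.83 to 7.03 over the alternative settings), and DCR, an acyltransferase of cutin synthesis, was higher at 27°C by 1.76 ± 0.09. All of these had untreated levels at or above those at 27°C, with 19.2 to 23.3 TPM of CER1 in untreated seedlings. LACS1, a long-chain acyl-CoA synthetase, lay on the other side, at 39, 35.9 and 41.5 TPM at 27°C and 160, 168 and 161 TPM with mannitol (-2.04 ± 0.06, adjusted p = 1.20e-11). Over the cuticle list 8 of 27 were higher and 10 lower (median -0.10), against 22.7% higher and 25.6% lower over all genes. Flavonoid genes were lower at 27°C for 9 of 15 and higher for 1 (median -0.65), with the anthocyanin enzyme DFR at -0.97 and the light-response factor gene HY5 at -0.81.

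Dividing-cell genes were mostly lower at 27°C, and root and iron genes went both ways. Of 26 cell cycle genes 16 were lower at 27°C and 1 higher, CYCD3;1 (median -0.31), and their summed level was 640, 664 and 615 TPM at 27°C and 794, 805 and 821 TPM with mannitol. The mitotic cyclin CYCB1;1 was at 7.22, 7.54 and 6.95 TPM at 27°C and 13.8, 12 and 15 TPM with mannitol (-0.82 ± 0.10, adjusted p = 1.37e-05). Of 24 root markers 9 were lower and 3 higher (median -0.16), and their summed level overlapped, at 3123, 3111 and 3328 TPM at 27°C and 3299, 3168 and 3230 TPM with mannitol. The nitrate transporter NRT2.1 was at 0.307, 0.433 and 0.381 TPM at 27°C against 17.5, 16.3 and 12.8 TPM with mannitol (-3.58 ± 0.22, adjusted p = 9.48e-09), while CASP5 of the root endodermis was higher at 27°C by 1.64 ± 0.19. Without mannitol replicate 1, 5 root markers were higher. In the iron list 4 of 24 were higher and 6 lower with a median of about 0, near the shares of all genes (22.7% higher and 25.6% lower). Its bHLH gene BHLH100 was at 67.3, 153 and 59.1 TPM at 27°C, with replicate 2 the high library, against 27.1, 16.2 and 26.4 TPM with mannitol. Reference genes were called for 5 of 13, 2 higher and 3 lower (median -0.06), against 48.3% of all genes called. Among them the elongation factor gene AT5G60390 stood at -0.55 ± 0.05 and ACT2 at 0.32 ± 0.05.

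Untreated seedlings and those given both treatments place these differences. Of the 636 genes at least 2-fold higher at 27°C, the untreated mean lay nearer to the mannitol mean for 589 (92.6%), and the mean with both treatments lay nearer to the 27°C mean for 516 (81.1%). For 498 of the 636, the untreated and mannitol means were within 0.5 of each other on the log2 scale. Of the 840 genes at least 2-fold lower at 27°C, the untreated mean lay nearer to the 27°C mean for 578 (68.8%) and nearer to the mannitol mean for 262 (31.2%). With both treatments, 527 (62.7%) of these 840 lay nearer to mannitol. On a scale with mannitol at 0 and 27°C at 1, the median gene of the higher set lay at 0.07 in untreated and 0.88 in doubly treated seedlings, and that of the lower set at 0.76 and 0.34. These shares carry no test.

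**Figure D5:**
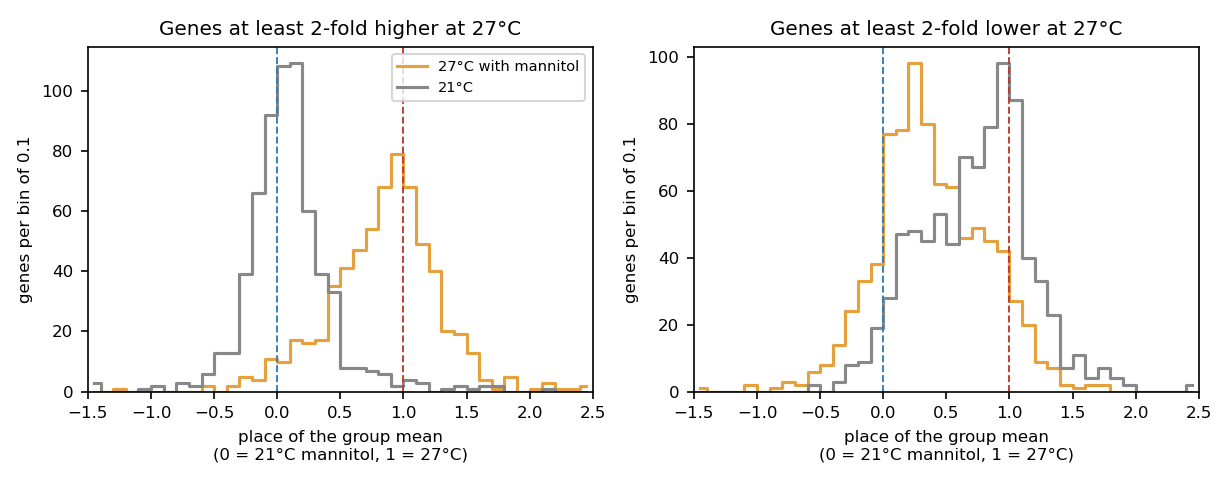
Number of genes (per bin of 0.1) by the place of their mean on a log2(TPM + 1) scale, where 0 is the mannitol mean and 1 the 27°C mean, for seedlings at 27°C with mannitol (orange) and at 21°C (grey); genes beyond the ends are counted in the end bins. On the left, for genes at least 2-fold higher at 27°C, the untreated medians lie at 0.07 and the doubly treated at 0.88; on the right, for genes at least 2-fold lower, at 0.76 and 0.34.

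A further set of genes differed from untreated seedlings in both single treatments and hardly between them. They were picked for an interval of the difference that lies within 0.58 of 0, so their likeness is a description, and both comparisons with 21°C share the untreated libraries. IGMT1, an indole glucosinolate methyltransferase, was at 76.5, 70.9 and 83.4 TPM at 27°C, 72.3, 65.7 and 69.7 TPM with mannitol and 17.1 to 17.9 TPM in untreated seedlings. The subtilase ATSBT5.2 was at 12, 9.62 and 10.1 TPM at 27°C, 10.4, 10.7 and 9.14 TPM with mannitol and 2.82 to 3.86 TPM untreated. Lower in both than in untreated seedlings was 4CL3, an enzyme of phenylpropanoid synthesis, with 2.31, 2.21 and 2.49 TPM at 27°C, 2.22, 2.83 and 2.35 TPM with mannitol and 6.45 to 6.77 TPM untreated. MAM1, which elongates glucosinolate side chains, was at 41.6, 30.7 and 36.8 TPM at 27°C, 34.8, 28.9 and 36.2 TPM with mannitol and 71.2 to 83.8 TPM untreated. ORG1 and AT1G72416, higher in both than in untreated seedlings, and LHCB1.4 and LHCB3, lower in both, make up the 8 genes named. The number 8 is the limit set by the naming rule and not a count of all genes that meet it. Over all genes tested, 10231 (51.1%) had a 95% interval of the difference between 27°C and mannitol within 0.58 of 0.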

How the data were processed

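RNA was measured in 12 seedling libraries, 3 per group. The authors deposited 1 table of TPM values (27655 genes), which per the file headers are counts but sum to 1000000 in each column. Per the submitters' processing notes, fastp 0.20.1, HISAT2, DESeq2 1.26.0 and TAIR10 were used, in roles that the sources used here do not state, nor do they state the counting, gene lengths or strand setting. Gene names and promoters came from the TAIR10.1 RefSeq annotation, which matched 27445 identifiers.

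Genes with at least 1 TPM in at least 3 of 12 libraries were tested (20005; 7650 were not) on log2(TPM + 1) with limma 3.58.1 (R 4.3.3), using 4 group means, a mean-variance trend, two-sided p-values and Benjamini-Hochberg adjustment, called below 0.05. The added 1 understates differences of low genes. Whole reads were recovered from TPM steps for 21760 of 21760 genes above 0 in at least 6 libraries (100% at a tolerance of 0.01 reads), giving 13477706 to 14572531 reads per library; they served for depth and 1 added fit with voom, which called 9851 genes. Replicates within a group differed by more than counting noise, and none was a duplicate. The fit was also run on simulated data with independent noise and few changed genes. Those settings differ from a comparison as broad as this one.

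Named genes were 13 genes chosen for the title's subject, the 12 most changed in each direction (mean of at least 5 TPM in the higher group, no overlap), up to 4 members per list with the largest called differences, and up to 8 genes shared by both treatments; other list members named were chosen after their values were seen. The 29 gene lists (685 genes, all in the table) and the comparison itself were chosen with earlier results of these data known. Of the list genes, 621 were tested, of which 225 were higher and 214 lower. No set test was made. Promoter windows were 250 bases before the gene start.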

Additional observations from a re-analysis of the deposited data

How the results depend on the processing

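Differences called in either direction numbered 9659; they ranged from 8342 to 10299 when each of the 6 libraries was left out in turn, and no gene was called in the opposite direction under any of the 15 other settings. A pseudocount of 5 lowered the number of genes at least 2-fold apart to 653, with 283 higher and 370 lower, because it shrinks differences of low genes. The replicate numbers do not pair the samples (correlations of same-numbered libraries -0.076, -0.059 and -0.003), and a fit with the replicate number as a block called 9512 genes, 9346 of them in the same direction. Median-of-ratios rescaling shifted the median by 0.011, with 9689 genes called, 48.6% higher against 46.9%; without 27°C replicate 2 the share was 50.2%. Of the named genes, those that changed sign were not called at first: ORG1 (0.00 with rescaling), and, leaving out libraries, ORG1 (-0.13 to 0.12), ELF3 (-0.05 to 0.18), ATSBT5.2 (-0.02 at the lowest), LHCB1.4 (-0.24 to 0.17) and 4CL3 (-0.10 to 0.02). The calls of ELF4 (0.14 to 0.34, adjusted p = 0.000793 to 0.152), CYP82C4 (adjusted p = 5e-05 to 0.122) and MPK11 (-2.99 to -0.16, adjusted p = 0.0114 to 0.170) were lost under some of the 15 settings. The iron list's median changed sign between -0.06 and 0.11, with 7 rather than 4 members higher in the 6 libraries alone and with voom, and the jasmonate median was 0.04 with a filter of 5 TPM. Other list counts that moved by over 1.5 times when a library was left out were those of 1 to 3 members: the higher calls of endoplasmic reticulum folding (1 to 0 without 27°C replicate 1 or 3 or mannitol replicate 1 or 2), of flavonoid genes (1 to 0 without each of the 6 in turn), of root markers (3 to 5 without mannitol replicate 1) and of the cell cycle (1 to 2 without mannitol replicate 3), and the lower calls of heat shock (1 to 2 without mannitol replicate 1). LHCB3 passed without mannitol replicate 2 (-0.40) and with voom (-0.26), and IGMT1 without 27°C replicate 2 (0.21). Of the 129 named genes with an absolute difference of at least 0.5, 46 moved by over 1.5 times with another pseudocount or voom, 0 under the other settings and 0 in sign, such as COR15B (-5.18 to -2.78), WRKY53 (-3.51 to -1.81), NRT2.1 (-5.27 to -1.93), CER1 (1.90 to 3.53) and TIP3;1 (1.67 to 6.21). Genes near 1 TPM are limited by depth.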

Other observations

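Ribosomal protein genes, grouped by words of the reference annotation after their values were seen, were mostly lower at 27°C than with mannitol. Of 311 tested, 217 (69.8%) were called lower and 22 (7.07%) higher, with a median of -0.48. Their summed level was 54613, 65857 and 59530 TPM at 27°C and 78454, 80212 and 78956 TPM with mannitol, against 80172 to 82632 TPM in untreated seedlings. The 27°C libraries were the low ones, and the mannitol and untreated libraries overlapped. Replicate 2 at 27°C was the nearest to mannitol, and without it 236 were lower and 19 higher.

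Among transcription factor families in the same grouping, WRKY genes were lower at 27°C for 35 of 59 (59.3%) and higher for 5 (8.47%), with a median of -0.58. Over all genes tested, 25.6% were lower and 22.7% higher. WRKY30 was at 0.886, 0.416 and 0.22 TPM at 27°C and 23.5, 21.9 and 21.9 TPM with mannitol, a difference of -3.98 ± 0.15. NAC genes were lower for 19 of 53 (35.8%) and higher for 4 (7.55%). F-box genes, which encode substrate receptors of ubiquitin ligases, leaned the other way, with 65 of 172 higher and 13 lower (median 0.25), and bHLH genes had 36 of 98 higher and 11 lower. Receptor-like kinase genes were lower for 53 of 127 and higher for 17, or 51 and 34 without 27°C replicate 2. Cytochrome P450 genes lay near the shares of all genes, with 49 of 172 higher and 40 lower. Genes encoded in the mitochondrion were higher at 27°C for 18 of 36 and lower for 1 (median 0.78), with summed levels of 229, 236 and 194 TPM at 27°C, 127, 127 and 107 TPM with mannitol, and 78 to 168 TPM in untreated seedlings, so the 27°C libraries lay above those of both groups at 21°C. Genes encoded in the chloroplast were higher for 22 of 74 (29.7%) and lower for 7 (9.46%), with a median of 0.31. Their summed levels were 1462, 1288 and 1211 TPM at 27°C and 1101, 1122 and 963 TPM with mannitol. Untreated seedlings had 1179, 1098 and 1759 TPM, which overlapped the 27°C libraries.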
